A study of Mus musculus with 9 samples.

Results

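The protein disulfide isomerases and oxidases of the endoplasmic reticulum (ER) were followed as 10 genes, taken by symbol from the 17132 genes of the deposited pancreas table. They are Pdia2, P4hb, Pdia3, Pdia4, Pdia5, Pdia6, Erp27, Erp44, Ero1lb and Ero1l. RefSeq calls the last pair Ero1b and Ero1a. All 10 were in the table and all 10 passed the low-count filter. Messenger RNA was sequenced from the whole pancreas of 9 C57BL/6 mice, 3 in each of 3 groups. QYD mice were injected intraperitoneally once an hour, 7 times in all, with caerulein, which mimics the hormone cholecystokinin, at 50 mg/kg as the design text writes it. The last injection also held lipopolysaccharide (LPS), and the mice were dosed at 0 and 8 h with the herbal medicine Qingyi Decoction. Model mice received the same caerulein and LPS with saline in place of the decoction. Control mice received saline only. Tissue was taken 24 h after the start. No allele or transgene is named in the labels. The titles number the libraries and each was taken as 1 mouse, so p-values judge differences between groups against the variation between these libraries.

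Proteins that enter the secretory pathway are folded in the ER, where isomerases form, break and rearrange the disulphide bonds between their cysteines. An isomerase that has given its disulphide to a client is oxidised again by an Ero1 enzyme, which passes the electrons to oxygen and releases hydrogen peroxide. Acinar cells of the pancreas secrete large amounts of digestive enzymes rich in disulphide bonds. Pdia2 and Ero1lb are known as the pancreas-enriched isomerase and oxidase, and P4hb and Ero1l as their widely expressed counterparts.

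Genes of ER protein folding can carry an ER stress response element in the promoter, a CCAAT box followed after 9 bases by CCACG, which the unfolded protein response factor ATF6 is known to bind together with NF-Y. The full element, CCAAT and CCACG with any 9 bases between them, was searched on both strands from 250 bases before to 50 bases after each RefSeq gene start (GRCm38.p6). It was found in 39 of 32851 promoters, 0.119%. It stood in the promoters of 2 members, Pdia6 and Ero1lb, of the 9 members with a promoter in the RefSeq table (Erp27 has none). A shorter form, ATTGG and CCACG with any 1 base between them, was in 0.0365% of promoters, the element TGACGTGG was in 0.676%, and both were in 0 members. Both promoters with the element are shown because Pdia6 and Ero1lb differed widely in the size of their change on TMM, and in its direction on library size. They are written 5′ to 3′ on the strand of the gene, with the 2 outer boxes of the element in capitals, and the stretch of Ero1lb ends where its longest annotated transcript begins.
Pdia6, chr12:17266339-17266588, plus strand: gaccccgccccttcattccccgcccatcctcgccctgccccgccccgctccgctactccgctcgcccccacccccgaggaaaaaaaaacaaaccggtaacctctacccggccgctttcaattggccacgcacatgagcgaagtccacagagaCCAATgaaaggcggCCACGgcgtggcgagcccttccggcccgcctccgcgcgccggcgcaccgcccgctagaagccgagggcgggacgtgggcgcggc
Ero1lb, chr13:12565633-12565817, plus strand: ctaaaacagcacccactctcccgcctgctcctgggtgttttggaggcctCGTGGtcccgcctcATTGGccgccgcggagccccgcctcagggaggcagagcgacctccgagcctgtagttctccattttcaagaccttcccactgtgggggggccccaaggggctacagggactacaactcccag
In Pdia6 the element lay 98 to 80 bases before the start and ran with the gene. In Ero1lb it lay 201 to 183 bases before the start used in the table and ran against the gene, so its boxes are printed in reverse complement. A match in the letters does not show that a factor binds there. Only exact matches in this window were searched, so a member without a match is not shown to lack such an element.

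Libraries held 19112923 to 20212744 estimated counts. The 50 most abundant genes took 65.6% to 71.9% of counts in QYD, 64.6% to 70.2% in Model and 90.6% to 91.1% in Control, and 0 members were among these genes. The scale therefore decides some directions below. On the TMM scale, which sets the typical gene near no change, CPM (counts scaled to the library total) are divided by factors of 1.36 to 1.79 in QYD, 1.52 to 1.82 in Model and 0.359 to 0.397 in Control. Moving from TMM to library size shifted the log2 fold change of the median gene by 2.15 in Model versus Control, 2.03 in QYD versus Control and -0.12 in QYD versus Model.

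In mice given caerulein and LPS the family had changed in composition at 24 h after the start. Pdia2, Erp27 and Ero1lb were lower in Model than in Control on both scales. P4hb, Pdia6 and Erp44 were lower relative to the typical gene but took a larger share of the library. Pdia3 was higher on both scales, and Pdia4, Pdia5 and Ero1l did not pass on TMM and were higher on library size. Among members, 6 were called lower and 1 higher on TMM, where 21.3% of the 12828 tested genes were called lower and 21.3% higher (edgeR's quasi-likelihood test, Benjamini-Hochberg adjusted p under 0.05). The higher call, Pdia3, was lost without Control 43 or Model 57, and without Model 59 Pdia5 passed too, which gave 2. On library size 3 were called lower and 7 higher, where 0.943% of tested genes were called lower and 94% higher. The median log2 fold change of the members was -0.63 on TMM, against 0.04 for all tested genes, and 1.53 on library size, against 2.19. Whole pancreas was sequenced, so fewer cells of a type and less RNA per cell cannot be told apart.

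**Figure D1:**
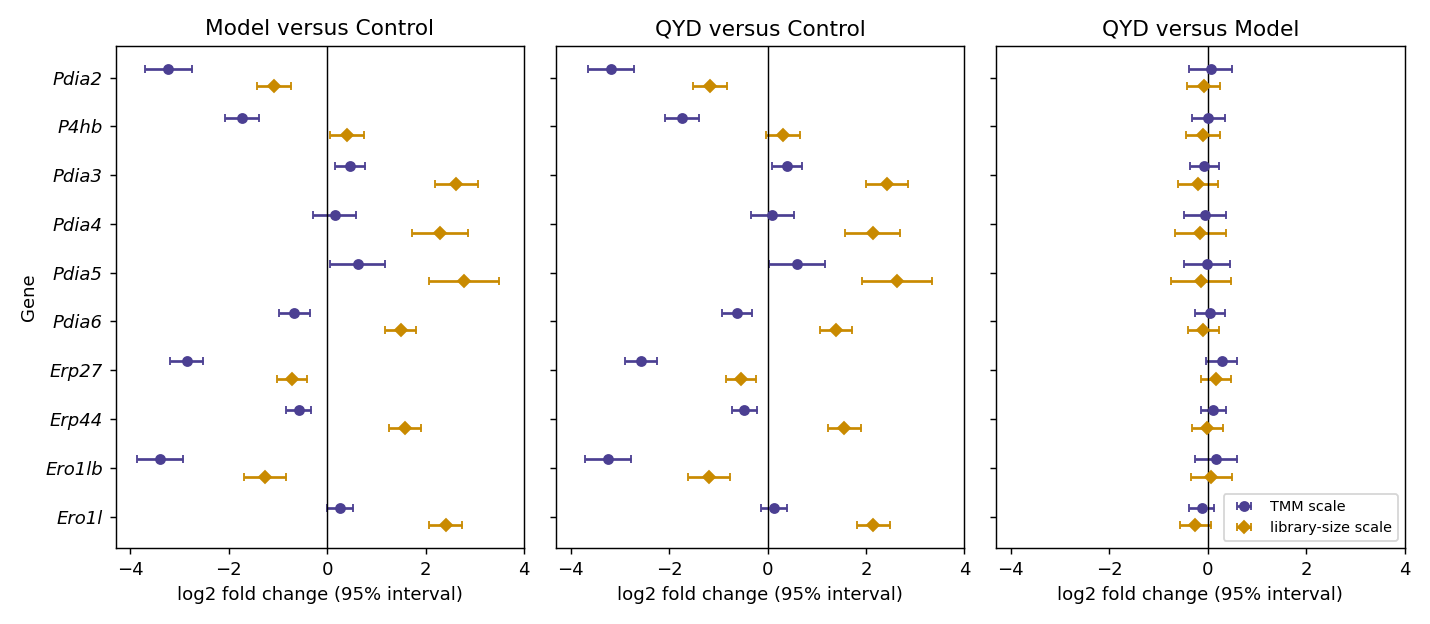
Log2 fold change of each gene with its 95% interval (x axis) in 3 comparisons, on the TMM scale (circles) and on library size alone (diamonds). Pdia2, Erp27 and Ero1lb lie left of 0 on both scales in Model and QYD versus Control, P4hb, Pdia6 and Erp44 change side with the scale, and every interval of QYD versus Model spans 0.

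Among the isomerases, Pdia2 (chromosome 17, 26195999 to 26199134, minus strand) had the largest change on TMM, though not on library size. It stood at 311, 267 and 343 CPM on TMM in Model 56, 57 and 59, against 3091, 3211 and 2332 CPM in Control 43, 44 and 45. Every Model library was far below every Control library. The log2 fold change was -3.23 ± 0.21 (SE; adjusted p = 3.2e-06, edgeR), and -1.08 ± 0.16 on library size.

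P4hb (chromosome 11, 120560298 to 120573253, minus strand), the classical isomerase, is also the beta subunit of collagen prolyl 4-hydroxylase and a subunit of the microsomal triglyceride transfer protein. It stood at 262, 313 and 341 CPM in Model 56, 57 and 59, against 1055, 1155 and 850.4 CPM in Control 43, 44 and 45. The groups did not overlap, and the log2 fold change was -1.74 ± 0.16 (SE; adjusted p = 1.9e-05, edgeR). As a share of the library the direction was the opposite, at 0.41 ± 0.16 (adjusted p = 0.027, edgeR).

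Pdia3 (ERp57; chromosome 2, 121413902 to 121438687, plus strand) acts on glycoproteins held by calnexin and calreticulin and sits in the complex that loads peptides onto MHC class I. It stood at 148, 180 and 136 CPM in Model 56, 57 and 59, against 100.1, 110 and 124 CPM in Control 43, 44 and 45. All Model libraries were above all Control libraries, by a small gap. The log2 fold change was 0.47 ± 0.14 (SE; adjusted p = 0.019, edgeR) and 2.62 ± 0.20 on library size. On TMM the call was lost without Control 43 (0.40, adjusted p = 0.064) and without Model 57 (0.35, adjusted p = 0.092; edgeR). Its exons share 18 bases with Catsper2 on the other strand, and whether reads were counted by strand is not stated.

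Pdia4 (ERp72; chromosome 6, 47796141 to 47813512, minus strand) carries an extra thioredoxin-like domain. It stood at 21.7, 31.9 and 26.5 CPM in Model 56, 57 and 59, against 18.5, 24.8 and 28.9 CPM in Control 43, 44 and 45. The groups overlapped, with a log2 fold change of 0.15 ± 0.20 (SE; 95% interval -0.29 to 0.58, adjusted p = 0.58, edgeR), against 2.29 ± 0.26 on library size. Without Control 43 the TMM value was -0.0073.

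Pdia5 (PDIR; chromosome 16, 35397308 to 35490919, minus strand) was the least abundant member, with 62 to 113 counts in Model and 13 to 16 in Control. It stood at 3.12, 3.36 and 2.14 CPM in Model 56, 57 and 59, against 1.96, 2.04 and 1.65 CPM in Control 43, 44 and 45. The groups were separate, by a narrow gap. The log2 fold change of 0.61 ± 0.26 (SE) did not pass (adjusted p = 0.076, edgeR), and passed without Model 59 at 0.78 (adjusted p = 0.027). It was 2.77 ± 0.33 on library size.

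Pdia6 (P5; chromosome 12, 17266589 to 17284785, plus strand), which carries the element shown above, binds the chaperone BiP and is known to dampen the stress sensor IRE1. It stood at 84.0, 83.8 and 81.9 CPM in Model 56, 57 and 59, against 144, 131 and 122 CPM in Control 43, 44 and 45. The Model libraries were nearly level and all below Control. The log2 fold change was -0.67 ± 0.14 (SE; adjusted p = 0.0032, edgeR) on TMM and 1.49 ± 0.15 on library size. Its exons share 50 bases with Atp6v1c2 on the other strand.

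Of the members without a full isomerase role, Erp27 (chromosome 6, 136907314 to 136922461, minus strand) lacks the catalytic cysteines and is known to bind Pdia3. It stood at 48.2, 49.0 and 65.1 CPM in Model 56, 57 and 59, against 409, 394 and 370 CPM in Control 43, 44 and 45. No library of either group came near the other group. Its log2 fold change was -2.85 ± 0.15 (SE; adjusted p = 1.1e-06, edgeR), and on library size -0.72 ± 0.14. Erp44 (chromosome 4, 48190711 to 48279635, minus strand) cycles between ER and Golgi and returns Ero1 enzymes, which lack a retention signal of their own. It stood at 41.5, 43.6 and 42.9 CPM in Model 56, 57 and 59, against 72.8, 58.1 and 60.9 CPM in Control 43, 44 and 45. Every Model library lay below every Control library, with a log2 fold change of -0.58 ± 0.12 (SE; adjusted p = 0.0026, edgeR) on TMM, against 1.57 ± 0.15 on library size.

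The oxidases went separate ways. Ero1lb (chromosome 13, 12565818 to 12609533, plus strand), which also serves insulin folding in mouse islets, stood at 33.9, 47.1 and 60.2 CPM in Model 56, 57 and 59. In Control 43, 44 and 45 it stood at 556, 503 and 433 CPM. Every Model library was far below the Control range. Its log2 fold change, -3.40 ± 0.21 (SE; adjusted p = 2.3e-06, edgeR), was the lowest of the 10 on TMM, and on library size it was -1.27 ± 0.20. Ero1l (chromosome 14, 45283087 to 45318572, minus strand), known to be induced by hypoxia, stood at 21.8, 21.8 and 21.4 CPM in Model 56, 57 and 59, against 18.9, 17.4 and 18.3 CPM in Control 43, 44 and 45. The Model libraries were all slightly above the Control libraries. The log2 fold change of 0.25 ± 0.12 (SE) did not pass (95% interval -0.02 to 0.52, adjusted p = 0.12, edgeR), against 2.40 ± 0.16 on library size.

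Scaling by the counts outside the 50 most abundant genes lay between these scales, with the median gene 0.30 above TMM. There Pdia5 (0.91) and Ero1l (0.55) passed as higher and Erp44 (-0.28, adjusted p = 0.053, edgeR) no longer passed as lower, so 3 members were higher and 5 lower, beside 36.2% and 13.2% of tested genes. In QYD versus Control this scale likewise gave 3 higher and 5 lower, beside 35.1% and 13% of tested genes.

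Ratios of members within a library do not depend on this scaling. The ratio of Ero1lb to Ero1l in TPM, which is per gene length, was 2.34, 2.81 and 3.70 in Model 56, 57 and 59, against 38.0, 37.0 and 30.7 in Control 43, 44 and 45. The mean log2 ratio differed by -3.60 ± 0.22 (SE), a 12.1-fold lower ratio in Model. The ratio of Pdia2 to P4hb was 1.80, 1.29 and 1.52 in Model and 4.43, 4.21 and 4.15 in Control, a log2 difference of -1.49 ± 0.14. For Erp27 to Erp44 the ratios were 2.54, 2.44 and 3.34 in Model and 11.8, 13.9 and 12.9 in Control, a log2 difference of -2.23 ± 0.16. All 3 ratios were separate between these groups. With 3 mice against 3, the exact two-sided permutation p was 0.10 for each, the smallest this design allows (0.15 after Benjamini-Hochberg adjustment over 9 ratio tests).

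**Figure D2:**
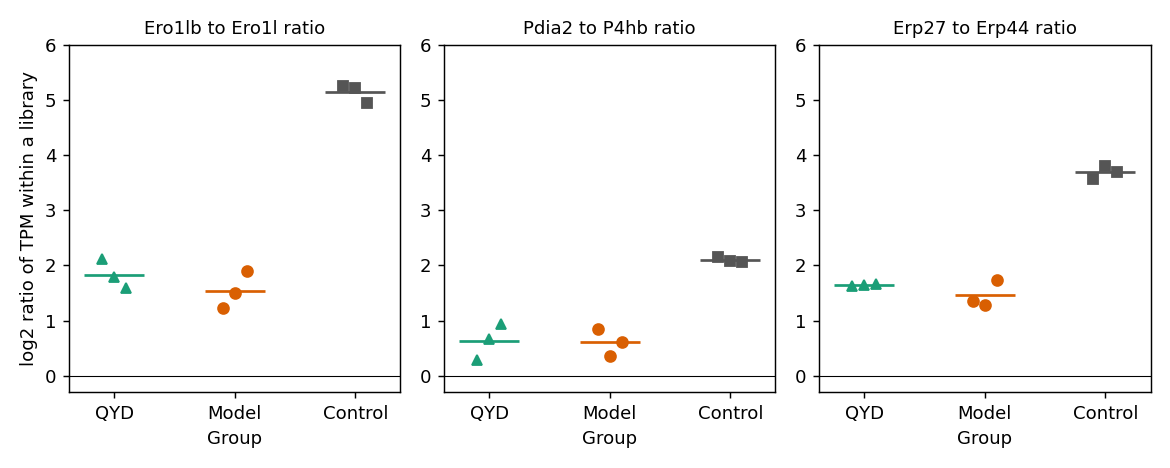
Log2 ratio of TPM within each library (y axis) for 3 pairs of members, by group, with 3 mice per group as points and the mean as a line. Model and QYD libraries lie below all Control libraries in each panel and overlap each other, for example 1.23 to 1.89 in Model and 4.94 to 5.25 in Control for Ero1lb to Ero1l.

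On TPM, where genes can be compared per length, Pdia2 was the most abundant member in every group and Pdia5 the least. The summed level was 939 ± 75.4 TPM in QYD, 1003 ± 41.3 in Model and 1199 ± 128 in Control (SD, n = 3). TPM is scaled within each library, so differences between groups in this sum carry the shift in composition described above. They are not differences on the TMM scale. Pdia2 took 35.0% ± 4.45 of this sum in QYD, 35.4% ± 3.33 in Model and 59.8% ± 2.19 in Control. P4hb took 22.6% ± 2.28 in QYD, 23.3% ± 1.83 in Model and 14.0% ± 0.51 in Control. Pdia3 took 10.4% ± 1.07 in QYD, 11.4% ± 2.17 in Model and 1.50% ± 0.37 in Control. Erp27 took 13.2% to 14.8% in QYD, 11.1% to 13.3% in Model and 14.5% to 17.4% in Control. The QYD range overlapped both Model and Control, while Model and Control were separate. Ero1lb took 2.93% ± 0.45 in QYD, 2.72% ± 0.41 in Model and 4.98% ± 0.32 in Control (SD, n = 3). These shares sum to a fixed total, so they do not move independently.

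**Figure D3:**
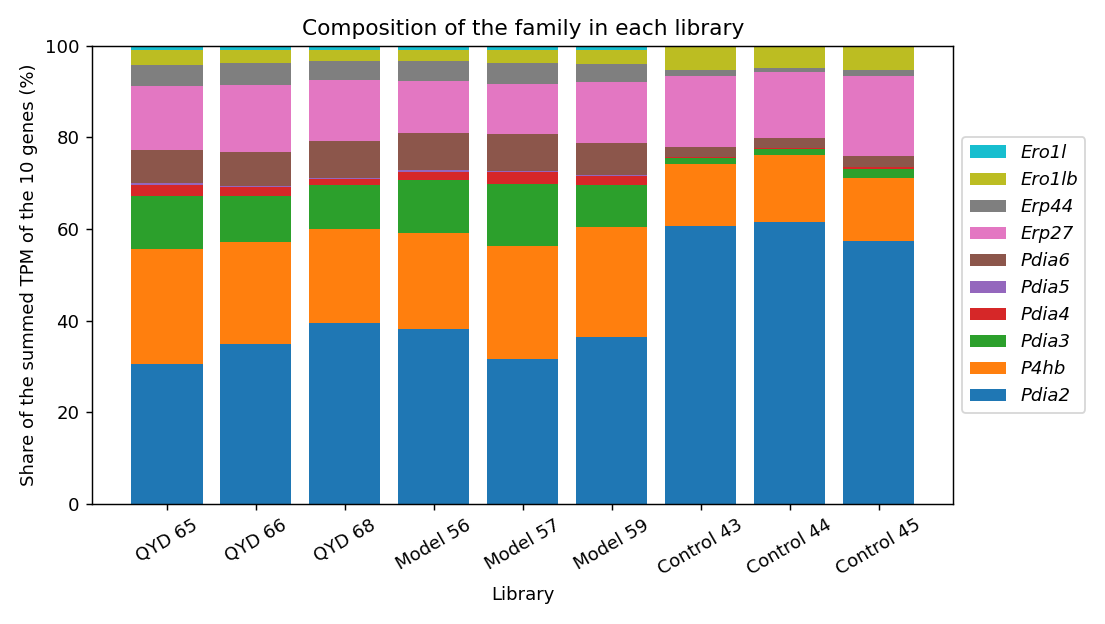
Share of the summed TPM of the 10 genes held by each gene (y axis, percent) in each of the 9 libraries. Pdia2 holds 57.3% to 61.5% in Control libraries and 30.5% to 39.4% in the 6 injured libraries, where P4hb, Pdia3 and Pdia6 take visibly more.

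In Control the order of mean TPM was Pdia2 (719 ± 101), Erp27 (187 ± 2.89), P4hb (169 ± 23.0), Ero1lb (59.5 ± 4.39), Pdia6 (26.4 ± 1.00), Pdia3 (17.8 ± 2.77), Erp44 (14.6 ± 1.09), Pdia4 (4.12 ± 1.09), Ero1l (1.69 ± 0.08) and Pdia5 (0.46 ± 0.04; SD, n = 3). The ranges of Erp27 and P4hb overlapped, as did those of Pdia3 and Erp44, and other neighbours were separate. In Model the order was Pdia2 (355 ± 36.3), P4hb (233 ± 15.8), Erp27 (119 ± 7.20), Pdia3 (115 ± 25.0), Pdia6 (77.3 ± 9.54), Erp44 (43.4 ± 4.66), Ero1lb (27.2 ± 3.05), Pdia4 (21.0 ± 4.43), Ero1l (9.37 ± 1.13) and Pdia5 (3.22 ± 1.00). Erp27 overlapped Pdia3, and Ero1lb overlapped Pdia4. Ero1lb thus stood in place 4 in Control and in place 7 in Model, and Pdia3 in place 6 in Control and in place 4 in Model. QYD had the same order as Model, with the same overlaps.

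**Figure D4:**
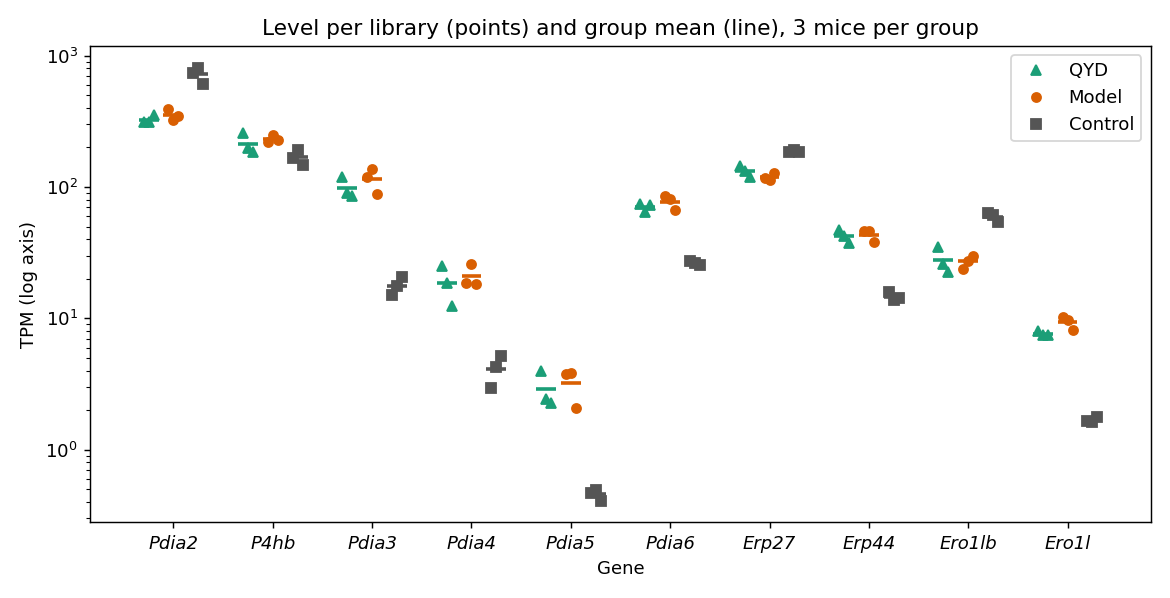
TPM of each gene (log axis) in the 9 libraries, with points for mice and lines for group means (QYD, Model, Control from left to right). Pdia2, Erp27 and Ero1lb lie lower in the injured groups than in Control, while Pdia3, Pdia4, Pdia5, Pdia6, Erp44 and Ero1l lie above Control on this per-library scale, Pdia5 at 2.06 to 3.99 TPM against 0.41 to 0.49.

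QYD versus Model asks what the decoction changed in injured mice. No member passed edgeR's quasi-likelihood test, and 0 were under an unadjusted p of 0.05 on TMM. Of all 12828 tested genes 750 were under it, so 0 of 10 members is near that share. DESeq2 and limma-voom also called 0 members. In edgeR 0% of all tested genes were called. Erp27 had the largest difference on TMM, standing at 60.3, 67.4 and 69.6 CPM in QYD 65, 66 and 68, against 48.2, 49.0 and 65.1 CPM in Model 56, 57 and 59. The groups overlapped through Model 59. Its log2 fold change was 0.28 ± 0.14 (SE; 95% interval -0.03 to 0.60, adjusted p = 0.83, edgeR), and without Model 59 it was 0.44. Ero1lb stood at 55.9, 54.3 and 47.2 CPM in QYD 65, 66 and 68, within the range of the Model libraries, with a log2 fold change of 0.16 ± 0.19 (95% interval -0.27 to 0.58, edgeR). Ero1l was at 17.4, 19.8 and 22.7 CPM in QYD 65, 66 and 68, which spanned the Model values, with -0.12 ± 0.12 (95% interval -0.37 to 0.13, edgeR), and it ran to -0.23 without QYD 68 and -0.03 without QYD 65. On library size Ero1l had lower values in all QYD libraries than in all Model libraries, at -0.25 ± 0.15, and did not pass (adjusted p = 0.92, edgeR). That was a larger difference than Erp27 had there (0.17). On counts outside the 50 most abundant genes Erp44 was higher in all QYD libraries (0.09, adjusted p = 0.91, edgeR). How many of all tested genes were separate in this way was not counted.

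The other members also lay close to 0 in QYD versus Model. Fold changes were 0.06 ± 0.20 for Pdia2, 0.01 ± 0.15 for P4hb, -0.07 ± 0.14 for Pdia3, -0.06 ± 0.19 for Pdia4, -0.02 ± 0.21 for Pdia5, 0.05 ± 0.14 for Pdia6 and 0.11 ± 0.12 for Erp44 (log2, SE). Among the 10 members the 95% intervals reached no lower than -0.48 and no higher than 0.60 on TMM. The within-library ratios overlapped between QYD and Model. Log2 differences were 0.30 ± 0.25 for Ero1lb to Ero1l (exact permutation p = 0.30), 0.02 ± 0.24 for Pdia2 to P4hb (0.90) and 0.18 ± 0.14 for Erp27 to Erp44 (0.40).

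QYD versus Control asks what still differed from saline mice under the decoction, and it shares its Control libraries with the first comparison. On TMM 6 members were lower and 1 was higher, beside 20.3% and 20.5% of all tested genes. The higher call, Pdia3, was lost (0 members higher) without Control 43, Control 44, QYD 65, QYD 66 or QYD 68. On library size 3 were lower and 6 higher, beside 0.99% and 93.8%. Pdia2 stood at 252, 306 and 400.0 CPM in QYD 65, 66 and 68, below all Control libraries given above, with a log2 fold change of -3.17 ± 0.21 (SE; adjusted p = 3.8e-06, edgeR). Ero1lb was at -3.24 ± 0.21 and Erp27 at -2.57 ± 0.15. All 3 were lower on library size as well, at -1.16 for Pdia2, -1.19 for Ero1lb and -0.54 for Erp27.

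P4hb stood at 313, 293 and 316 CPM in QYD 65, 66 and 68, again below every Control library. Its log2 fold change was -1.73 ± 0.16 (SE), and 0.31 ± 0.16 on library size, where it did not pass (adjusted p = 0.083, edgeR). Pdia6 was at -0.62 ± 0.14 and Erp44 at -0.47 ± 0.12, against 1.39 for Pdia6 and 1.56 for Erp44 on library size. Pdia3 stood at 151, 139 and 152 CPM in QYD 65, 66 and 68, above every Control library. Its log2 fold change was 0.40 ± 0.14 (SE; adjusted p = 0.038, edgeR). Without those libraries it was 0.33 (Control 43), 0.40 (Control 44), 0.39 (QYD 65), 0.44 (QYD 66) and 0.38 (QYD 68), with adjusted p from 0.065 to 0.11 in edgeR. Pdia4 (0.09 ± 0.20), Pdia5 (0.60 ± 0.26) and Ero1l (0.13 ± 0.12) did not pass on TMM. On library size Pdia3 (2.43), Pdia4 (2.14), Pdia5 (2.64) and Ero1l (2.15) were called higher, where 93.8% of tested genes were.

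The genes with the most similar profiles over the 9 libraries were found by the root mean square difference of centred log2 CPM among 4879 genes of at least 10 CPM. Libraries fall into clusters by group, so a small difference can reflect a like step between Control and the injured groups alone. Shared regulation was not tested. For Pdia2 these were Cpa1 (0.10), a carboxypeptidase zymogen, and the zinc transporter Slc39a5 (0.13). For Ero1lb they were Zg16 (0.15), a zymogen granule protein, and Egf (0.15), and for Erp27 Hsd17b13 (0.08) and the lipase relative Pnliprp2 (0.09). P4hb lay nearest to Tmed3 and Msrb1 (0.07 each), Pdia6 to Fopnl (0.07), and Erp44 to Atp6ap2 (0.06) and Gpr89 (0.07). Pdia3 lay nearest to Arrb2 and Phf8 (0.08 each), Pdia4 to Rnf216 and Pi4ka (0.10 each), Pdia5 to Mfge8 (0.12) and Iqgap1 (0.13), and Ero1l to Chmp2a (0.06) and Dlst (0.07). Among members, Pdia6 and Erp44 were the closest pair (0.12), followed by Pdia3 and Ero1l (0.20).

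Other thiol and disulphide genes of the ER were taken from a list of 26, of which 23 were tested. In Model versus Control 4 were higher and 9 lower on TMM, beside 21.3% of all tested genes in each direction, with a median of -0.25 against 0.04 for all tested genes. On library size 22 were higher and 1 lower, beside 94% and 0.943% of tested genes. Prdx4, a peroxiredoxin that uses the peroxide made by Ero1 to form further disulphides, fell to 26.1 ± 2.62 CPM in Model, against 178 ± 21.9 CPM in Control (SD, n = 3). Its log2 fold change was -2.77 ± 0.17 (SE) on TMM, and it was the 1 gene that was lower on library size too (-0.62). Selenom (-1.39), Selenof (-1.18), Vkorc1 (-1.23) and Creld2 (-0.94) also fell on TMM, and stood at 0.77, 0.98, 0.92 and 1.21 on library size in the same order. Selenof is a selenoprotein that binds the glycoprotein folding sensor, and Vkorc1 reduces vitamin K epoxide. Selenon, a selenoprotein tied to ER calcium pumping, rose by 1.43 ± 0.17 on TMM and 3.58 on library size.

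The proteins that bind or join members were taken as a list of 11 genes, of which 9 were tested. In Model versus Control 2 were higher and 2 lower on TMM, close to the 21.3% of all tested genes in each direction, and all 9 were higher on library size, where 94% of tested genes were. Tapbp (tapasin), which is disulphide-bonded to Pdia3 in the peptide-loading complex, rose by 1.84 ± 0.27 (SE) on TMM, to 118 ± 22.0 CPM in Model against 33.0 ± 13.7 CPM in Control (SD, n = 3). P4ha1, the catalytic partner of P4hb in prolyl hydroxylation, rose by 0.45 ± 0.15. Lman1, the cargo receptor of the ER-Golgi intermediate compartment, fell (-1.63 ± 0.17), as did the chaperone Hspa5 (-1.12 ± 0.14), with 0.52 for Lman1 and 1.03 for Hspa5 on library size.

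In QYD versus Control 5 of the 23 thiol genes were higher and 9 lower on TMM, beside 20.5% higher and 20.3% lower among all tested genes. Prdx4 (-2.51), Selenom (-1.37), Creld2 (-1.02), Vkorc1 (-1.10) and Txndc11 (-1.28) fell, and Selenon rose by 1.25. Prdx4 was lower on library size as well (-0.49), where the other 4 that fell stood between 0.67 and 1.02. Of the 9 partner genes 2 were higher and 2 lower, close to those shares, with Tapbp at 1.41, Sumf1 at 0.32, Lman1 at -1.54 and Hspa5 at -1.03. On library size Lman1 stood at 0.52 and Hspa5 at 1.00. In QYD versus Model none of either list passed edgeR's test. The smallest p belonged to Tmx3 (0.52 ± 0.16) and Tmx1 (0.47 ± 0.16), membrane-bound relatives of the isomerases, and to Tapbp (-0.42 ± 0.26) and P4ha2 (-0.26 ± 0.17).

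Markers of the cell types in the tissue were measured beside these results, with calls for Model versus Control. The medians of the islet, plasma and B cell, and macrophage lists change sign with the scale. Of all tested genes, 21.3% were called higher and 21.3% lower on TMM, and 94% higher and 0.943% lower on library size. Counts of markers called are to be read beside these shares. All 13 acinar markers were lower in Model versus Control on TMM, with a median of -3.13, and on library size 9 were lower and 3 higher, with a median of -0.99. They summed to 105745 to 137639 CPM on TMM in QYD, 114918 to 151818 in Model and 647239 to 832058 in Control, or 18.7% to 19.5% of library counts in QYD, 20.6% to 23.0% in Model and 25.7% to 32.3% in Control. Of 12 tested islet markers 9 were lower on TMM, with a median of -1.56, while on library size 0 were lower and 5 higher, with a median of 0.61. Islet markers summed to 122 to 215 CPM in QYD, 175 to 371 in Model and 864 to 1292 in Control, and as percentages of library counts Model (0.0266% to 0.0672%) and Control (0.0315% to 0.0512%) overlapped. Neutrophil markers were higher for 9 of 10 on TMM and 10 of 10 on library size, and summed to 154 to 285 CPM in QYD, 134 to 189 in Model and 9.80 to 40.6 in Control. Plasma and B cell markers summed to 76.2 to 111 CPM in QYD, 79.1 to 98.1 in Model and 19.2 to 32.7 in Control, but 1 of 8 passed as higher on TMM and the median log2 fold change in Model versus Control was -0.28, against 0.04 for all tested genes (2 of 8 higher on library size). Duct markers (3 of 6 higher and 1 lower on TMM, 5 higher on library size) summed to 164 to 269 CPM in QYD, 184 to 304 in Model and 65.1 to 82.9 in Control. The sums of 2 lists overlapped between Model and Control on TMM. Macrophage markers (3 of 8 higher on TMM, 8 on library size) summed to 88.0 to 117 CPM in QYD, 67.6 to 144 in Model and 76.9 to 110.3 in Control. Stellate and fibroblast markers (3 of 8 higher and 2 lower on TMM, 8 higher on library size) summed to 267 to 479 CPM in QYD, 282 to 475 in Model and 269.7 to 383 in Control. In every group 0 markers of any list were at 0 in all libraries. The part of these cell types in the members' changes was not tested.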

How the data were processed

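The authors deposited a table of 17132 genes with estimated counts, FPKM and TPM for each of 9 libraries, per the file headers. Of the estimated counts as deposited, 93.5% were within 1e-06 of a whole number. TPM values deposited by the authors served for levels and ratios, and deposited FPKM values as an alternative. Per the submitters' processing notes, the tools were RSEM 1.2.12, Bowtie2 2.2.5 and HISAT2 2.0.4 on build GRCm38.p6, and the notes give no roles. Counts here are taken as RSEM's expected counts; per the labels' protocols, RNA was selected with oligo(dT) beads. After rounding, edgeR 4.0.16 (R 4.3.3) fitted a single quasi-likelihood model by group to the 9 libraries, with TMM scaling and the default filter (12828 genes kept, 4304 removed). P-values were adjusted over all tested genes by the Benjamini-Hochberg method at 0.05. A standard error was the log2 fold change divided by the square root of F, and 95% intervals used the moderated degrees of freedom. Libraries of 19112923 to 20212744 counts gave a common biological coefficient of variation of 0.175. Ratios were compared with exact permutation tests (scipy 1.17.1). The fit was also run on simulated counts with known changes, with no outcome given here. Those counts were drawn from the composition of the reference group alone. They cannot show how the fit handles the shift in composition between Control and the injured groups. One neighbour of Pdia6 by profile is not reported here.

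Alternatives were RLE, library size, TMM or totals without the 50 most abundant genes, 2 other filters, DESeq2 1.42.0, limma 3.58.1, only the compared groups, and each library left out. The members and lists were chosen with earlier results of these data known. Named genes were all members, the list genes with the smallest p, and the 2 most similar genes per member. Coordinates and promoters are RefSeq's on GRCm38.p6, and exon overlaps GENCODE M21's.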

Additional observations from a re-analysis of the deposited data

How the results depend on the processing

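Counts of members called lower in Model and QYD versus Control (6 each) were 5 each on counts outside the 50 most abundant genes, 3 each on library size, and 6 with any library left out. Counts called higher (1 each) moved to 7 in Model and 6 in QYD versus Control on library size, to 3 each on counts outside the 50 most abundant genes, and lay between 0 and 2 in Model and between 0 and 1 in QYD versus Control with a library left out. On library size the direction reversed in Model versus Control for P4hb (0.41), Pdia6 (1.49) and Erp44 (1.57), and in QYD versus Control for P4hb (0.31), Pdia6 (1.39) and Erp44 (1.56). In QYD versus Model, where no member passed under any alternative, library size reversed the sign of P4hb (-0.10), Pdia2 (-0.085), Pdia6 (-0.094) and Erp44 (-0.010). P4hb also changed sign with RLE (-0.0039), counts outside the 50 most abundant genes (-0.012), DESeq2 (-0.0044) and limma-voom (-0.029), where Pdia6 did too (-0.015). With a library left out, QYD versus Model ran from -0.090 to 0.096 for P4hb, -0.14 to 0.20 for Pdia2, -0.15 to 0.055 for Pdia3, -0.18 to 0.093 for Pdia4, -0.18 to 0.11 for Pdia5, -0.11 to 0.14 for Pdia6, 0.21 to 0.44 for Erp27, 0.069 to 0.16 for Erp44, -0.23 to -0.029 for Ero1l and -0.031 to 0.38 for Ero1lb. Pdia4 ran from -0.0073 to 0.30 in Model and from -0.062 to 0.25 in QYD versus Control. The ratio of Pdia2 to P4hb in QYD versus Model ran from -0.13 (without QYD 68) to 0.20, that of Ero1lb to Ero1l from 0.14 to 0.47 and that of Erp27 to Erp44 from 0.099 to 0.32. The ratios in Model and QYD versus Control stayed lower with each library left out, with deposited FPKM and without length. For shares the alternative run was deposited FPKM, and each share moved there by less than its SD. Within a library, deposited FPKM and TPM differ by a common factor. Shares and ratios could therefore not differ between them beyond rounding, so FPKM was no separate check of either. Scales differ by construction in what they hold constant, and other causes were not tested. No paired analysis was possible because the groups share no replicate numbers. Depth limits Pdia5 most, at 13 to 16 counts in Control.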
